A study of Homo sapiens with 6 samples.

Results

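The 53 genes described here encode the machinery that carries a cell into mitosis, builds the spindle and divides the cell. They were named one by one in 7 role groups, with no use of measured values in the membership rule, and all 53 were among the 22153 genes of the deposited table. They were compared between EA.hy926 cells kept at 1% oxygen for 8 h (hypoxia, 3 libraries) and EA.hy926 cells kept at 20% oxygen (normoxia, 3 libraries). EA.hy926 is a human hybrid of umbilical vein endothelium and the A549 lung carcinoma, and it divides continuously, unlike most resting endothelium. All 6 libraries are of this one line. Whether the replicates were separate cultures is not stated in the labels, so the p-values speak of the spread among these 6 libraries, and that spread may be technical.

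Entry into mitosis is driven by cyclin B bound to the kinase CDK1, which is switched on by CDC25 phosphatases and by Polo and Aurora kinases. The spindle checkpoint then holds the anaphase-promoting complex until every kinetochore is attached, after which separase releases the sister chromatids and the central spindle guides cytokinesis. Most of these genes are transcribed in G2 and M phase, under the DREAM and MuvB complexes and FOXM1, so that in a bulk library their RNA is known to track the share of cycling cells. Fewer cells in mitosis and less RNA per cell cannot be told apart in such data.

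No mitosis or spindle gene passed the test in either direction. Of the 53 genes, 46 had an FPKM of at least 1 in at least 3 libraries and were tested. Limma, with Benjamini-Hochberg adjustment over all 10237 genes tested, called 0 of the 46 higher and 0 lower in hypoxia, against a background of 0.0977% of all genes called higher and 0.0% called lower. All 46 had an adjusted p of 1.00. By limma, differences between the groups were small beside the spread. Of 46 log2 differences (hypoxia minus normoxia, on the log2(FPKM + 0.1) scale), 43 lay within 0.5 of 0, and 0 reached 1. The 95% intervals were wide, with half-widths of 0.50 to 2.48 and a median of 0.86. Of the 46, 20 stayed inside a 2-fold change in both directions. By the count tests edgeR and DESeq2, also with all libraries, TTK, CENPF and KIF18A were below -1. Their values by edgeR were -1.29, -1.16 and -1.15.

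The balance of positive and negative differences turned when 1 library was left out. With all 6 libraries, 19 of the 46 differences were positive and 27 negative, with a median of -0.07, against a median of 0.00 over all genes tested. Without normoxia replicate 3, 34 were positive and 12 negative, with a median of 0.20, against 0.01 over all genes. Still 0 of the 46 passed, with backgrounds of 0.186% of all genes called higher and 0.00977% called lower by limma.

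The members differ widely in base composition, which the membership rule did not use and with which the values moved between libraries. The stretches shown are from the coding sequence of the 3 tested members with the lowest GC content of the longest transcript (HMMR at 36.7%, CDK1 and KIF18A at 37.0%) and of the 3 with the highest (CDC20 at 57.9%, CDC25B at 59.3% and INCENP at 59.6%). Each is 90 bases of GENCODE release 29 (GRCh38), read 5′ to 3′ on the coding strand, with G and C in capitals.
HMMR (chr5:163475520-163475609, plus strand, exon 11): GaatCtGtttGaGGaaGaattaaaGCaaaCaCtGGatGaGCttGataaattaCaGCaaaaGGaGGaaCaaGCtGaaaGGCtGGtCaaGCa
CDK1 (chr10:60788102-60788191, plus strand, exon 5): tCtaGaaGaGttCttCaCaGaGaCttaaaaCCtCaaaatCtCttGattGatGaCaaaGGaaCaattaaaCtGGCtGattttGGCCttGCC
KIF18A (chr11:28036396-28036485, minus strand, exon 14): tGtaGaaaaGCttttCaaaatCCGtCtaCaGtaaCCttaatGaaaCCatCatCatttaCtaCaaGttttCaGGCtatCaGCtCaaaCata
CDC20 (chr1:43360802-43360891, plus strand, exon 7): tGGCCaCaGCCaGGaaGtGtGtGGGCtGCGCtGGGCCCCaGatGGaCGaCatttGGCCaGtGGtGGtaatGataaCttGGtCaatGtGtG
CDC25B (chr20:3796587-3796676, plus strand, exon 1): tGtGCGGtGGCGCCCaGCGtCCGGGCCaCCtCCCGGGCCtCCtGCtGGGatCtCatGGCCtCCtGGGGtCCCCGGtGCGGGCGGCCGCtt
INCENP (chr11:62130141-62130230, plus strand, exon 4): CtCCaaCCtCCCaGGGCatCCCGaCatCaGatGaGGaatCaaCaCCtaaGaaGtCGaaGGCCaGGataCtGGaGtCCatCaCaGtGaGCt
In the first 3 of these stretches, 30 to 36 of the 90 bases were G or C, and in the last 3, 48 to 69.

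Promoters of genes of this class commonly carry a cell cycle homology region (CHR), where the MuvB core binds, and a CCAAT box, where NF-Y binds. RefSeq promoter windows (GRCh38.p14, 250 bases before to 50 after the first listed start) were matched for 45 of the 53 genes. AURKA, FOXM1, BUB3, TTK, UBE2C, KNL1, BIRC5 and TPX2 had no entry. A CHR, searched as TTTGAA or TTCGAA on both strands, was in 34 of the 45 windows (75.6%), against 16.6% of 27305 promoters of all genes. CCAAT on either strand was in 33 (73.3%), against 35.7% of all promoters, and both motifs were in 26 (57.8%), against 6.58%. The ACGTG form of the hypoxia response element core, the only form searched, was in 13 on either strand (28.9%), against 21.6%. The 30 bases around the CHR match nearest the start are given for 6 of the genes whose values are described at length, 5′ to 3′ on the gene's strand, with the match in capitals.
MKI67 (chr10:128126435-128126464, minus strand): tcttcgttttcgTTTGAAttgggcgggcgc
TOP2A (chr17:40418030-40418059, minus strand): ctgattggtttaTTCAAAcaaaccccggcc
CDK1 (chr10:60778158-60778187, plus strand): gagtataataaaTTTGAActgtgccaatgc
PLK1 (chr16:23678848-23678877, plus strand): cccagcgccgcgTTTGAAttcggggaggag
HMMR (chr5:163460598-163460627, plus strand): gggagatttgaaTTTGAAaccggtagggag
KIF18A (chr11:28108149-28108178, minus strand): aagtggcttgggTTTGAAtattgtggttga
A match describes the letters only. At the first listed start of CDC25B neither motif was found, while over its 4 listed starts a CHR was in 1 window and CCAAT in 2. Across tested members, the 29 with a CHR had a median log2 difference of -0.11 and the 10 with a window but no CHR a median of -0.07. With normoxia replicate 3 left out, these medians were 0.46 and 0.11, and the median GC content of the first set was 40.1%, against 48.8% in the second.

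**Figure D1:**
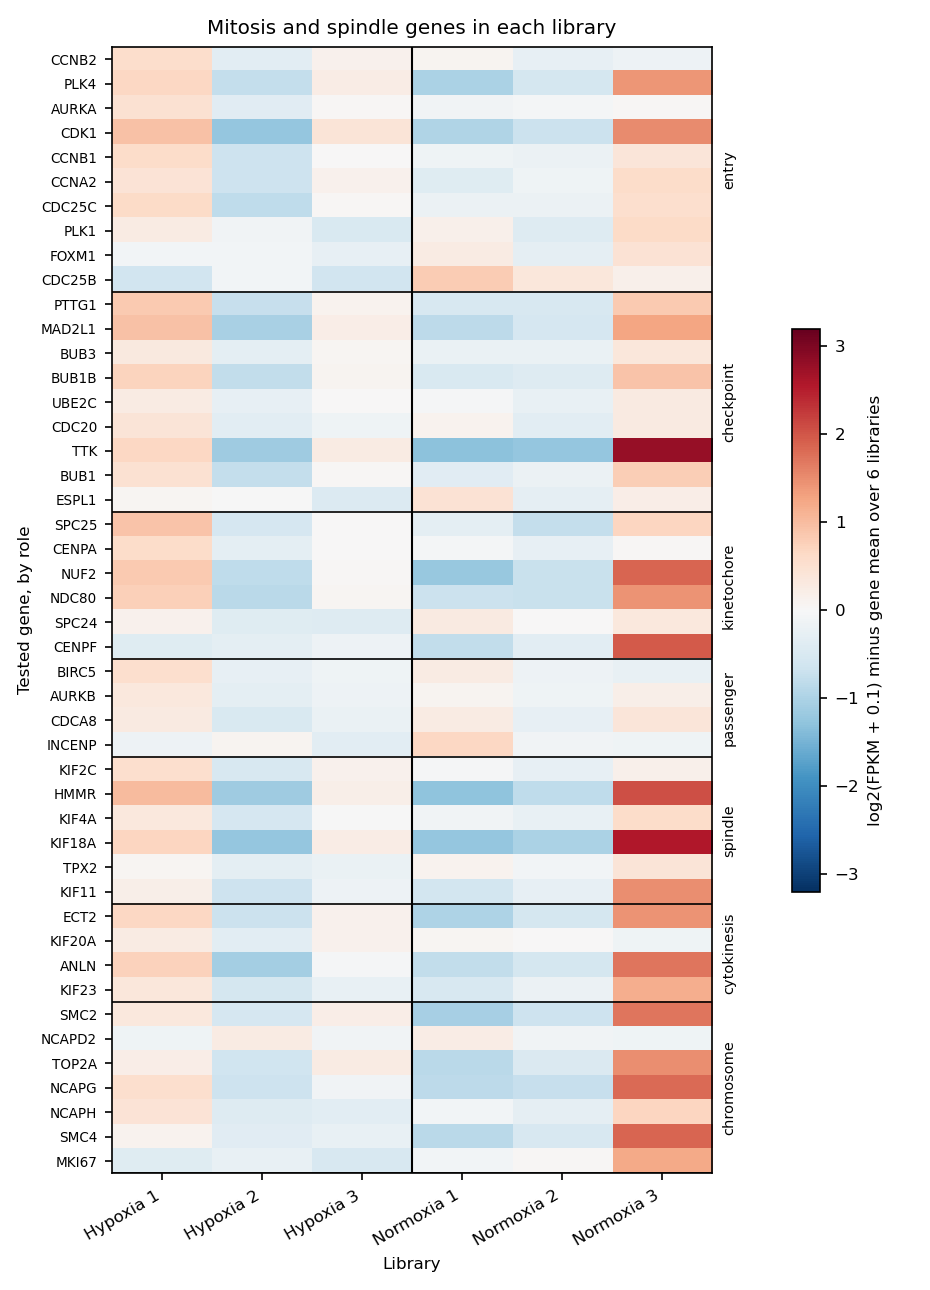
Level of each of the 46 tested genes in each library, as log2(FPKM + 0.1) minus the gene's mean over the 6 libraries, by role group, with hypoxia libraries left of normoxia libraries. Normoxia replicate 3 is the darkest red column for most genes, and hypoxia replicate 2 is mostly blue.

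Among the 10 genes of mitotic entry, 0 passed the test, 4 differences were positive and 6 negative, and the median was -0.05 (0.14 without normoxia replicate 3). CDC25B, the phosphatase that starts the activation of CDK1 at the centrosome, had the largest difference in size of the 46 tested members by limma with all libraries. It lies at chr20:3786772-3806121 on GRCh38. Its reads, divided by the size factor of each library and here called scaled reads, were 2740, 3963 and 2747 in hypoxia, against 7381, 5402 and 4758 in normoxia. All 3 hypoxia libraries were below all 3 normoxia libraries. The means were 3150 ± 704 in hypoxia and 5847 ± 1367 in normoxia (SD, n = 3 each), a ratio of 0.539. The log2 difference was -0.89 (95% interval -1.47 to -0.31) and the adjusted p by limma was 1.00, with an unadjusted p of 0.00794. Without normoxia replicate 3 it was -1.02, with an adjusted p of 0.507 by limma and of 0.0751 by DESeq2. In that limma fit TTK (1.21) and HMMR (1.06) had larger differences in size.

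FOXM1, the transcription factor that drives many G2 and M genes, had 1413, 1408 and 1267 scaled reads in hypoxia, against 1826, 1235 and 2074 in normoxia. The hypoxia libraries lay close together and inside the normoxia range, with a log2 difference of -0.30 (95% interval -0.87 to 0.27).

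CDK1, the kinase at the centre of mitotic entry, had 1310, 286 and 906 scaled reads in hypoxia, against 346, 420 and 1949 in normoxia. Its libraries spread more than 4-fold within each group, so that the difference of 0.09 had an interval of -1.65 to 1.82. Its partner CCNB1 (cyclin B1) had 2887, 1217 and 1931 in hypoxia, against 1755, 1670 and 2507 in normoxia, a log2 difference of -0.04. The highest difference of the entry group belonged to CCNB2 (cyclin B2), with 820, 438 and 609 in hypoxia, against 594, 463 and 500 in normoxia, and a log2 difference of 0.22 (95% interval -0.42 to 0.86). Both cyclins had their highest and lowest values within hypoxia.

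PLK1, the Polo kinase of spindle assembly, had 3006, 2308 and 1789 scaled reads in hypoxia, against 2788, 1869 and 3800 in normoxia (log2 difference -0.22). AURKA, the centrosomal Aurora kinase, had 1442, 798 and 1051 in hypoxia, against 961, 981 and 1059 in normoxia (log2 difference 0.09). The groups overlapped for both kinases. The other entry genes, CCNA2 (cyclin A2), CDC25C and PLK4, the kinase of centriole duplication, had log2 differences of -0.06, -0.11 and 0.10 and overlapping groups.

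Of the 9 genes of the spindle checkpoint and of anaphase control, 0 passed, 5 differences were positive and 4 negative, and the median was 0.00 (0.24 without normoxia replicate 3). TTK, also known as MPS1, the kinase that recruits the checkpoint to unattached kinetochores, lies at chr6:80003887-80042527 and showed the widest spread of any tested member. It had 275, 72.6 and 206 scaled reads in hypoxia, against 63.5, 67.2 and 1231 in normoxia. The normoxia replicate 3 value was 18.8-fold the mean of normoxia replicates 1 and 2 and above all 3 hypoxia libraries. With it the log2 difference was -0.15 (95% interval -2.63 to 2.33), and without it 1.21 (95% interval 0.04 to 2.38), with an adjusted p of 0.829 by limma and 0.142 by DESeq2.

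BUB1, a checkpoint kinase, had 536, 219 and 390 scaled reads in hypoxia, against 292, 335 and 668 in normoxia, and a log2 difference of -0.17. The highest difference of this group was that of PTTG1 (securin, the inhibitor of separase), with 2086, 700 and 1266 in hypoxia, against 820, 822 and 2086 in normoxia (log2 difference 0.13). ESPL1 (separase itself) had the lowest, with 1572, 1494 and 1122 in hypoxia, against 2085, 1234 and 1768 in normoxia (log2 difference -0.26). In each of these 3 genes the groups overlapped. The checkpoint proteins BUB1B, BUB3 and MAD2L1, the anaphase-promoting complex activator CDC20 and its ubiquitin-conjugating enzyme UBE2C had log2 differences of -0.04 to 0.08.

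Of the 8 centromere and kinetochore genes, 6 were tested and 0 passed, with 3 positive and 3 negative differences and a median of 0.01 (0.47 without normoxia replicate 3). CENPF, a large kinetochore protein that accumulates in G2, had 201, 213 and 240 scaled reads in hypoxia, against 148, 208 and 1113 in normoxia. It ran from 148 to 240 over 5 libraries, and normoxia replicate 3 was 6.24-fold the mean of normoxia replicates 1 and 2. The log2 difference was -0.57 (95% interval -2.11 to 0.97) with all libraries and 0.27 without that one.

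NUF2, a subunit of the microtubule-binding NDC80 complex, had 390, 120 and 221 scaled reads in hypoxia, against 89.0, 128 and 801 in normoxia. Its log2 difference was 0.05 with all libraries and 1.00 (95% interval -0.06 to 2.06) without normoxia replicate 3. SPC25, of the same complex, had the highest difference of the 46 tested members by limma with all libraries (log2 difference 0.26, 95% interval -0.87 to 1.39). It had 163, 58.1 and 86.5 in hypoxia, against 67.8, 49.2 and 140 in normoxia. NDC80, SPC24 and CENPA, the centromeric histone, had differences of -0.03, -0.44 and 0.20.

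The 4 subunits of the chromosomal passenger complex, which corrects faulty attachments, were the group least changed by leaving out the library. With all libraries 1 difference was positive and 3 were negative (median -0.18), and without normoxia replicate 3 all 4 were negative (median -0.08), AURKB and BIRC5 at -0.02 each. AURKB, its kinase, had 1616, 1018 and 1139 scaled reads in hypoxia, against 1361, 1150 and 1441 in normoxia (log2 difference -0.09, 95% interval -0.63 to 0.46). BIRC5 (survivin) had 2941, 1704 and 1837 in hypoxia, against 2456, 1832 and 1728 in normoxia (log2 difference 0.08). INCENP, the scaffold, had 535, 640 and 476 in hypoxia, against 963, 558 and 550 in normoxia (log2 difference -0.28). Both had overlapping groups, as had CDCA8 (borealin), whose difference was -0.26. These 4 transcripts have a GC content of 51.4% to 59.6%, the richest of the 7 role groups by its lowest member.

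Spindle kinesins and microtubule proteins numbered 8, of which 6 were tested and 0 passed, with 2 positive and 4 negative differences and a median of -0.18 (0.21 without normoxia replicate 3). KIF18A, a kinesin that dampens chromosome movement at the metaphase plate (chr11:28020620-28108308), had 160, 36.3 and 114 scaled reads in hypoxia, against 36.0, 43.6 and 613 in normoxia. HMMR, a spindle pole protein (chr5:163460203-163491945), had 767, 169 and 431 in hypoxia, against 151, 214 and 1600 in normoxia. Normoxia replicate 3 exceeded the mean of replicates 1 and 2 by 15.4-fold for KIF18A and 8.75-fold for HMMR. In both genes hypoxia replicates 1 and 3 lay well above hypoxia replicate 2 and above normoxia replicates 1 and 2.

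The log2 difference of KIF18A was -0.21 with all libraries and 1.02 without normoxia replicate 3, and that of HMMR 0.03 and 1.06. KIF11, the motor that separates the spindle poles, had the lowest difference of this group, with 242, 132 and 187 scaled reads in hypoxia, against 139, 175 and 615 in normoxia (log2 difference -0.43, 95% interval -1.70 to 0.83). KIF2C, a microtubule depolymerase, had 1504, 713 and 1127 in hypoxia, against 996, 848 and 1147 in normoxia (log2 difference 0.11). KIF4A and TPX2, the activator of Aurora A, had differences of -0.16 and -0.30.

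For the central spindle and cytokinesis, 4 of 7 genes were tested and 0 passed, with 2 positive and 2 negative differences and a median of -0.11 (0.37 without normoxia replicate 3). ECT2, the exchange factor that activates RhoA at the cleavage site, had 1019, 398 and 716 scaled reads in hypoxia, against 321, 435 and 1760 in normoxia (log2 difference 0.08). KIF23, a subunit of centralspindlin, had 388, 198 and 251 in hypoxia, against 205, 263 and 690 in normoxia (log2 difference -0.31). The groups overlapped for both. ANLN (anillin) and KIF20A had differences of -0.25 and 0.04.

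In the group of mitotic chromosome structure, all 7 genes were tested and 0 passed, with 2 positive and 5 negative differences and a median of -0.16 (0.53 without normoxia replicate 3). MKI67, the source of the Ki-67 proliferation marker (chr10:128096659-128126385), had 491, 545 and 446 scaled reads in hypoxia, against 610, 661 and 1519 in normoxia. As for CDC25B, all 3 hypoxia libraries were below all 3 normoxia libraries. Its log2 difference was -0.76 (95% interval -1.64 to 0.11) with an adjusted p of 1.00 by limma, and -0.35 (95% interval -0.94 to 0.23) without normoxia replicate 3.

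TOP2A, the topoisomerase that untangles sister chromatids, had 1154, 638 and 1215 scaled reads in hypoxia, against 550, 718 and 2844 in normoxia (log2 difference -0.11). The condensin ATPase SMC2 had 432, 230 and 394 in hypoxia, against 158, 211 and 1131 in normoxia. NCAPG, another condensin subunit, had 287, 119 and 181 in hypoxia, against 106, 115 and 702 in normoxia. For these 3 genes normoxia replicate 3 was the highest of the 6 libraries.

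The log2 difference of SMC2 was 0.01 with all libraries and 0.86 (95% interval 0.08 to 1.64) without normoxia replicate 3, and that of NCAPG -0.16 and 0.70. The condensin subunits SMC4, NCAPD2 and NCAPH had differences of -0.32, 0.00 and -0.20 with all libraries. NCAPD2 had the narrowest interval of the tested members, with 3354, 4438 and 3439 scaled reads in hypoxia, against 4393, 3455 and 3353 in normoxia and an interval of -0.50 to 0.50.

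**Figure D2:**
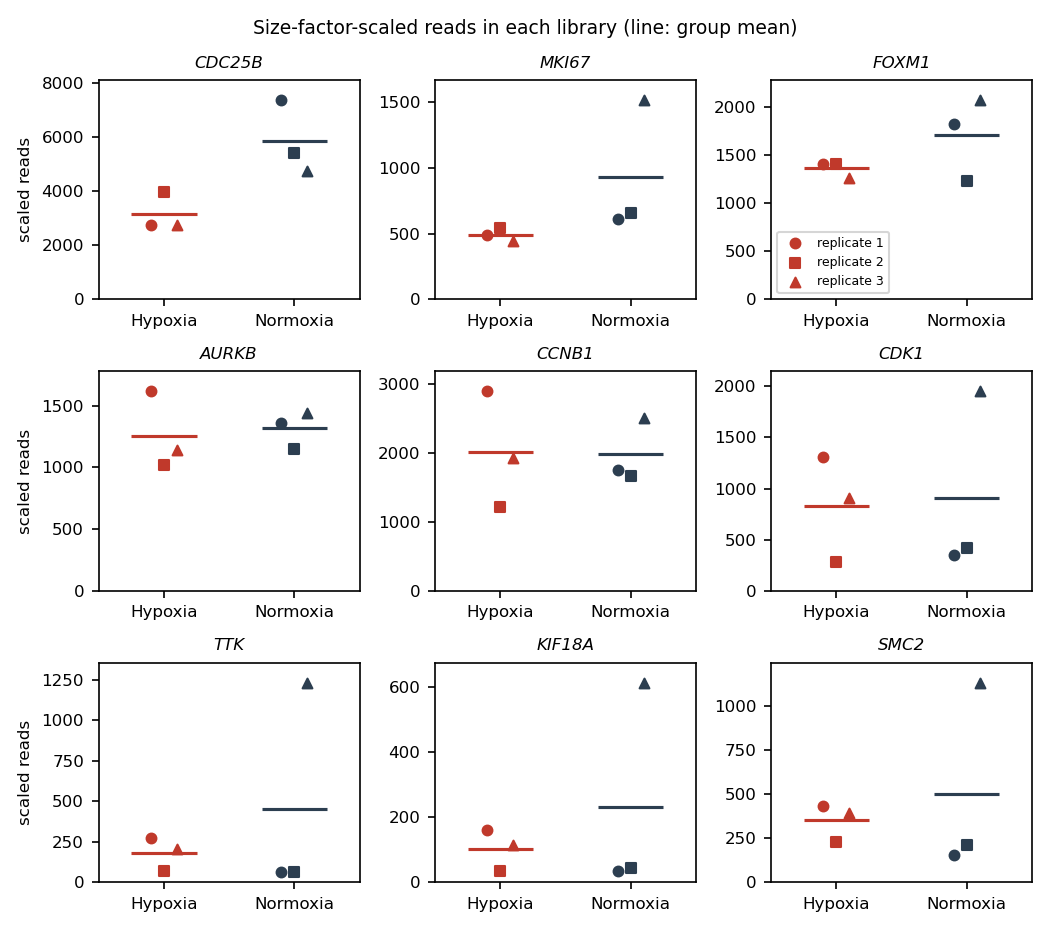
Size-factor-scaled reads of 9 genes in each library, hypoxia left and normoxia right, with a line at each group mean and a marker shape for each replicate number. CDC25B and MKI67 have separate groups, whereas the normoxia mean of TTK, KIF18A and SMC2 lies far above replicates 1 and 2.

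The 7 members that were not tested were present but weakly expressed per length. CENPE, KNL1, ASPM, NUSAP1, KIF20B and KIF14 had an FPKM of 1 or more in 1 library each, and PRC1 in 0. CENPE, the kinetochore kinesin, had 97.5, 30.1 and 76.0 scaled reads in hypoxia, against 36.0, 44.5 and 561 in normoxia. KIF20B showed the same shape, with 105, 41.5 and 78.9 in hypoxia, against 41.3, 35.0 and 466 in normoxia, and in KNL1, ASPM and KIF14 normoxia replicate 3 was 7.53-fold, 6.99-fold and 4.42-fold the mean of the other two normoxia libraries. NUSAP1 had 70.5, 34.2 and 42.8 in hypoxia, against 27.5, 33.1 and 22.6 in normoxia, with groups that did not overlap. PRC1, the bundler of the central spindle, had 11.4, 4.15 and 15.2 in hypoxia, against 9.53, 10.4 and 1.88 in normoxia. In GENCODE release 29, 62.2% of the exon bases of NUSAP1 and 57.6% of those of PRC1 lie in exons of another gene on the same strand, so the low values of these genes are uncertain. PLK4, TTK, CENPF and KIF18A reached the minimum in only 3 libraries. For PLK4, TTK and KIF18A these were hypoxia replicates 1 and 3 and normoxia replicate 3. For CENPF they were hypoxia replicates 2 and 3 and normoxia replicate 3. The filter was set on all 6 libraries, so without normoxia replicate 3 these genes were in the test through hypoxia libraries alone.

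Groups without overlap were no more frequent among the members than among all genes in the higher direction, and close to the background in the lower. With all libraries, 0 of 46 tested members had every hypoxia library above every normoxia library, against 4.77% of all genes, and 2 (CDC25B and MKI67) had every one below, against 2.72%. Without normoxia replicate 3, 4 were fully above (TTK, SMC2, SMC4 and NCAPG), against 12.0% of all genes tested, and 2 fully below (again CDC25B and MKI67), against 9.35%. At an unadjusted p below 0.05, limma picked 0 members as higher and 1 as lower (CDC25B), where 2.19% and 0.498% of all genes fell. Without normoxia replicate 3 it picked 2 as higher (TTK and SMC2) and 1 as lower (CDC25B), where 4.07% and 1.48% fell. The count tests on the recovered reads also called 0 members. With all libraries edgeR called 0.0977% and DESeq2 0.488% of all genes, and without normoxia replicate 3 edgeR called 0.195% and DESeq2 0.967%. At an unadjusted p below 0.05 and with all libraries, each of them picked 0 members as higher and 2 as lower, CDC25B and MKI67. The backgrounds were 1.9% of all genes higher and 0.567% lower by edgeR, and 2.22% higher and 0.684% lower by DESeq2. Without normoxia replicate 3, edgeR picked 6 members as higher and 1 as lower at that unadjusted p, where 4.4% and 1.48% of all genes fell. DESeq2 then picked 11 as higher and 1 as lower, where 5.64% and 1.45% fell. The 11 were CDK1, PLK4, MAD2L1, TTK, NDC80, NUF2, KIF18A, HMMR, ECT2, SMC2 and NCAPG, which all have a GC content below 45%, and the 6 by edgeR were TTK, NUF2, KIF18A, HMMR, ECT2 and SMC2. Among these, PLK4, TTK and KIF18A had passed the filter only through hypoxia libraries and normoxia replicate 3. Their picks as higher without that library are therefore not independent of the filter.

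Leaving out normoxia replicate 3 turned the sign of 21 of the 46 differences. Of these, 18 turned positive and 3 negative (BIRC5, KIF20A and NCAPD2). Another 16 were positive and 9 negative both ways. The 9 negative ones were CDC25B, FOXM1, ESPL1, SPC24, AURKB, INCENP, CDCA8, TPX2 and MKI67. Of those 9, CDC25B, SPC24, INCENP, CDCA8, TPX2 and MKI67 also stayed negative after a correction of each library for GC content and length, with and without that library.

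**Figure D3:**
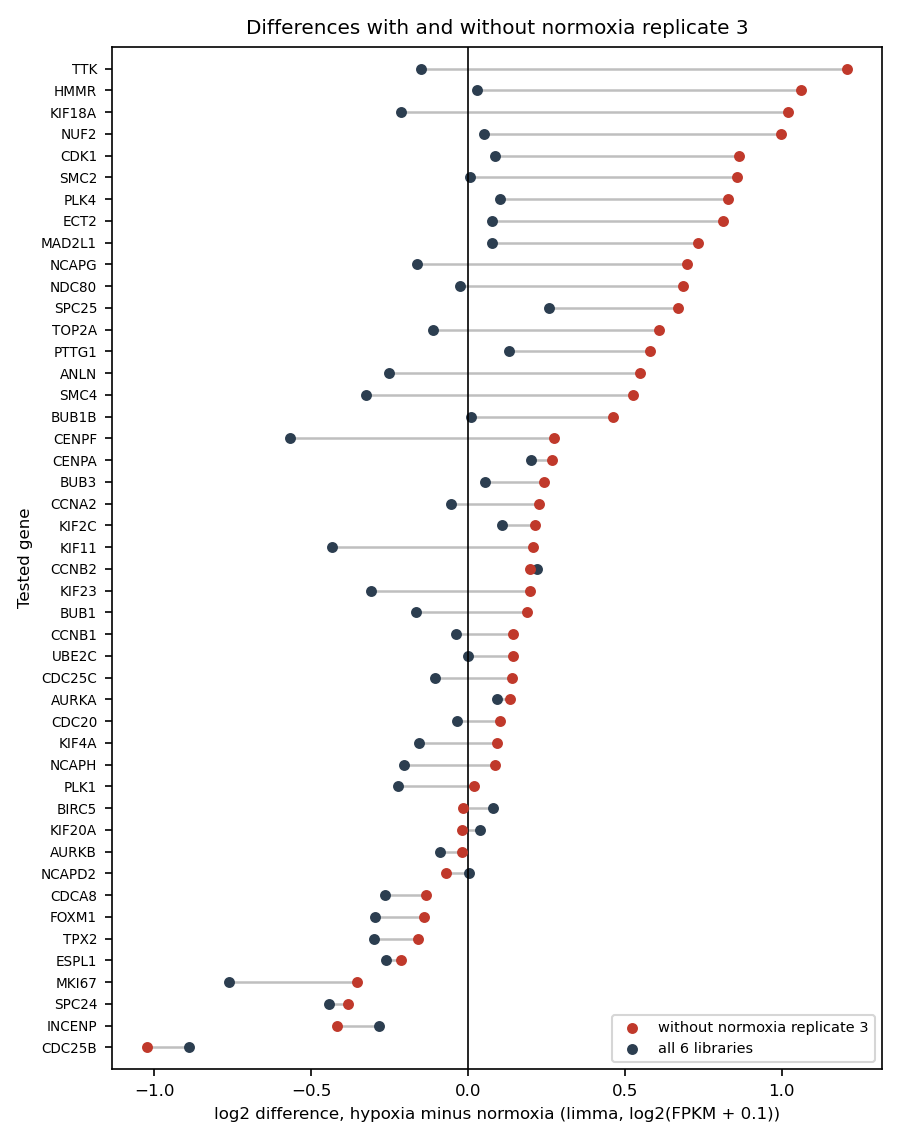
Log2 difference, hypoxia minus normoxia, of each tested gene from limma with all 6 libraries (dark) and without normoxia replicate 3 (red), joined by a line and sorted by the second. TTK is at -0.15 and 1.21, whereas CDC25B stays negative, at -0.89 and -1.02.

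Normoxia replicate 3 was the highest of the 6 libraries for 31 of the 46 tested members (67.4%), against 27.4% of all genes tested. It exceeded the mean of normoxia replicates 1 and 2 by at least 2-fold in 22 members (47.8%), against 14.5% of all genes, and the median ratio was 1.82, against 0.946. Normoxia replicates 1 and 2 lay within 1.5-fold of each other for 44 of the 46. The hypoxia libraries also differed among themselves. Hypoxia replicate 1 was highest and replicate 2 lowest of that group in 36 of 46 members (78.3%), against 25.6% of all genes, and the median ratio of replicate 1 to replicate 2 was 1.86, against 1.00. Leaving out hypoxia replicate 2 gave a median log2 difference of 0.21 with 31 positive, and leaving out hypoxia replicate 1 gave -0.36 with 2 positive.

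These shifts ran with GC content. In members with a transcript GC content below 45%, of which 24 were tested, normoxia replicate 3 stood at a median of 4.59-fold the mean of replicates 1 and 2, against 1.27-fold in the 22 tested members at 45% or more. The median log2 difference was -0.03 in the first set with all libraries and 0.64 without normoxia replicate 3, when 24 of 24 were positive. In the second it was -0.13 and -0.02. Genes of low GC content in general shared that direction: without normoxia replicate 3, differences were positive for 1272 of 1404 genes below 40% (median 0.42) and for 1519 of 2039 genes from 40% to 45% (median 0.19). Below 40% the median ratio was 5.62 over 12 tested members, against 2.28 over 1404 genes. Across the 46 tested members the log2 excess of normoxia replicate 3 had a Pearson correlation with GC content of -0.80, and across 10233 genes of -0.57, a description of 1 library set against the other two of its group. After the GC and length correction the median log2 excess was 1.16 in the members below 45% GC, against 2.17 before it, and 0.54 in those at 45% or more, against 0.35 before it. Over all 46 it was 0.85, against 0.86 before the correction, and over all genes -0.01. With that correction the median log2 difference of the members was -0.15 with all libraries and 0.10 without normoxia replicate 3, and 0 members were called either way, against 0.274% and 0.313% of all genes.

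**Figure D4:**
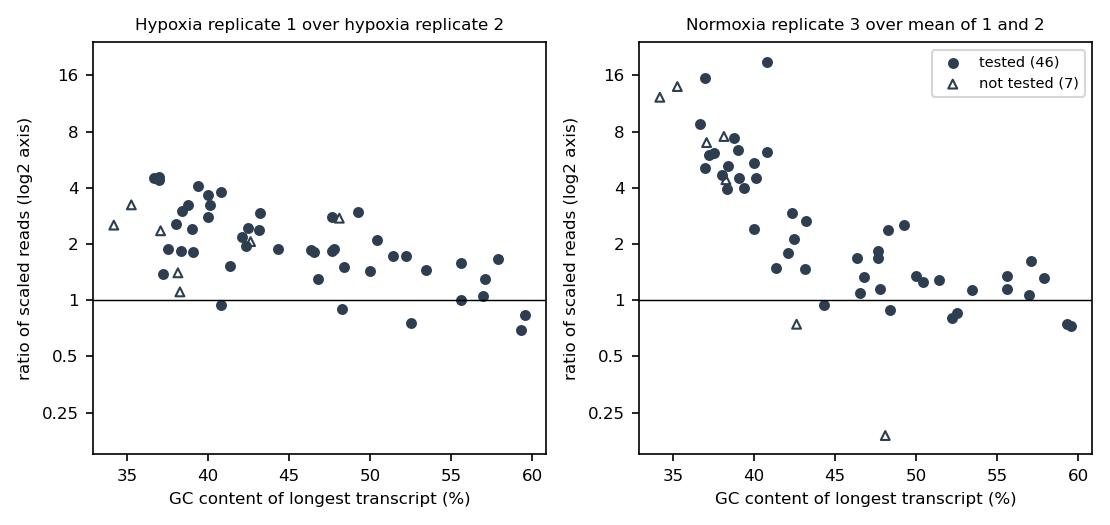
Ratio of scaled reads, on a log2 axis, against the GC content of the longest transcript for the 53 genes, for hypoxia replicate 1 over replicate 2 (left) and normoxia replicate 3 over the mean of replicates 1 and 2 (right). The highest ratios, up to 18.8 for TTK, are at low GC content on the right.

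As a share of all assigned reads, the 53 genes took 0.302%, 0.192% and 0.248% in hypoxia, against 0.262%, 0.244% and 0.408% in normoxia. Their summed scaled reads were 0.850 of the normoxia mean in hypoxia with all libraries and 1.025 without normoxia replicate 3. Markers of the cell type moved between the same libraries. The 15 endothelial markers took 0.517%, 1.15% and 0.823% of reads in hypoxia, against 0.926%, 0.905% and 0.501% in normoxia, so that within each group they were lowest in the library where the mitosis genes were highest. All 15 were measured, and CDH5, PECAM1 and TIE1 were among the more abundant, with CDH5 at 10212, 36221 and 17876 scaled reads in hypoxia, against 21451, 19218 and 8576 in normoxia, while EMCN and CLDN5 had at most 5. The 9 measured epithelial markers took 0.431%, 0.251% and 0.357% in hypoxia, against 0.315%, 0.340% and 0.513% in normoxia, nearly all from KRT7, KRT8 and KRT18, with EPCAM at 18 scaled reads or fewer. Fibroblast and mural markers took at most 0.0144% and leukocyte markers at most 0.000685% of any library. Libraries held 17226736 to 18652704 assigned reads, with the fewest genes detected (16741) in normoxia replicate 3 and 18214 to 18858 in the others. The part of GC content, library and cell-type markers in the members' values was not tested.

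The hypoxia treatment itself was plain in the same libraries. All 13 listed targets of the hypoxia-inducible factors were higher in hypoxia, with a median log2 difference of 1.91. Limma called 7 of them, against 0.0977% of all genes called higher. This list, like the others, was chosen with earlier results of these data known.

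A further 127 mitotic genes outside the 53 were listed by function. Of these, 110 were tested and 0 were called by limma, with 38 positive and 72 negative differences and a median of -0.09, and without normoxia replicate 3, 70 were positive and the median was 0.15. At an unadjusted p below 0.05, limma picked 1 of them as higher and 2 as lower with all libraries, where 2.19% and 0.498% of all genes fell, and 6 as higher and 1 as lower without normoxia replicate 3, where 4.07% and 1.48% fell. ANAPC16, a subunit of the anaphase-promoting complex, had the highest difference, with 1037, 909 and 1048 scaled reads in hypoxia, against 684, 761 and 674 in normoxia (log2 difference 0.49, 95% interval 0.02 to 0.97). ANAPC13, of the same complex, had the lowest, with 620, 197 and 458 in hypoxia, against 408, 536 and 1259 in normoxia (log2 difference -0.76, 95% interval -1.98 to 0.46). For ANAPC16 the groups did not overlap, and for ANAPC13 they did.

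**Figure D5:**
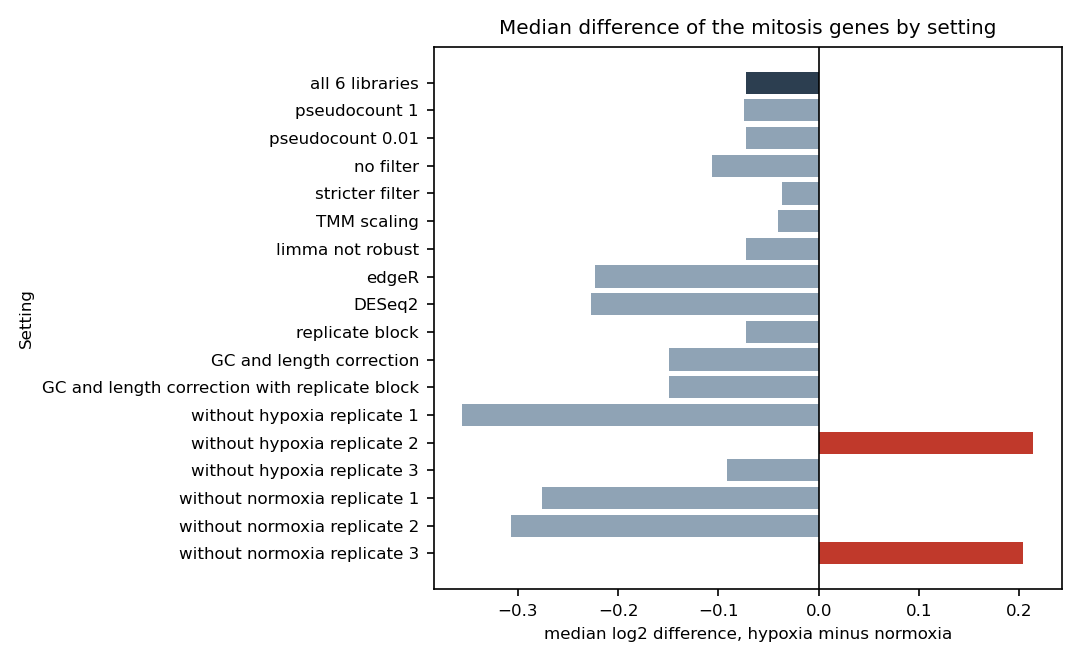
Median log2 difference of the tested mitosis and spindle genes, hypoxia minus normoxia, under each setting, with positive medians in red. The median is positive without hypoxia replicate 2 (0.21) and without normoxia replicate 3 (0.20) and negative under the other settings drawn.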

How the data were processed

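Polyadenylated RNA was sequenced in 3 hypoxia and 3 normoxia libraries. The submitters' processing notes list CASAVA, HISAT2 2.0.5 and featureCounts 1.5.0-p3. They also list mm9, although all identifiers are human. No source used here gives the counting settings, strand included, or the build. The deposited signal is whole read counts per gene divided by 1 size factor per library: 100% of values were within 0.05 of a whole multiple of the library's step.

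To keep a test designed for FPKM, these values were divided by GENCODE 29 exon length and the mean library total. Genes with an FPKM of 1 in 3 libraries were tested with limma 3.58.1 (R 4.3.3; trend, robust) on log2(FPKM + 0.1), two-sided, with Benjamini-Hochberg adjustment and a threshold of 0.05. This scale understates the differences of weakly expressed genes. EdgeR 4.0.16 and DESeq2 1.42.0 were run on the recovered reads. GC and length trends were removed per library by lowess (span 0.3) as an alternative. The fit was tested on simulated reads drawn for each gene separately. They held no shift shared by the genes of a library, so that test does not cover the shifts described above.

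The members, lists, tests and named genes were chosen with earlier results of these data known. Named with values in every library were 10 members fixed by name, any member past a test, the highest and lowest difference in each role group, and, among tested members, the 6 highest ratios of normoxia replicate 3 to the mean of replicates 1 and 2. Exons of opposite-strand genes overlap some members, most in NCAPG (33.1%), SMC4 (18.5%) and FOXM1 (15.9%).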

Additional observations from a re-analysis of the deposited data

How the results depend on the processing

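No mitosis or spindle gene was called by limma, edgeR or DESeq2 under any alternative run, with or without normoxia replicate 3. Of the 110 other mitotic genes, DESeq2 without normoxia replicate 3 called 1 as higher (SPDL1, named after its values were seen, adjusted p = 0.043), and the other fits called 0. That DESeq2 fit called 99 of all 10237 genes (0.967%), so 1 of 110 is near the background. By limma the median log2 difference of the members ran from -0.36 to 0.21 when 1 library was left out. Its sign depended on which library that was. Medians of single libraries had an SD of 0.665 within groups. That SD comes from the same libraries, so it cannot test whether the median difference is stable. With all libraries the median difference was -0.22 by edgeR (12 positive, 34 negative) and -0.23 by DESeq2 (11 positive, 35 negative). Both lay further below 0 than the limma median of -0.07. Without normoxia replicate 3 the median difference was 0.26 by edgeR and 0.26 by DESeq2. The number of all genes called was 10 with all libraries, 4 with no filter, 50 by DESeq2, 28 after the GC and length correction, 19 with a replicate block, 24 with both, and 1 to 20 with 1 library left out, the highest without normoxia replicate 3 and the lowest without hypoxia replicate 3. Same-numbered libraries did not pair (correlations of deviations -0.40, 0.24 and 0.22), and the block left the members' count at 0. Differently numbered libraries had correlations from -0.56 to 0.61. The highest was that of hypoxia replicate 2 with normoxia replicate 1, and hypoxia replicate 1 with normoxia replicate 3 had 0.50.

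Some named members changed sign, and the cause was not tested. With a pseudocount of 1 the log2 difference was -0.023 for HMMR, -0.026 for NUF2 and -0.068 for SMC2. By edgeR it was 0.026 for CCNB1, -0.11 for CDK1, -0.23 for ECT2, -0.52 for HMMR, -0.47 for NUF2 and -0.50 for SMC2. By DESeq2 it was 0.025 for CCNB1, -0.12 for CDK1, -0.24 for ECT2, -0.52 for HMMR, -0.48 for NUF2 and -0.51 for SMC2. After the GC and length correction, with or without the block, it was -0.046 for CDK1, -0.019 for ECT2, -0.11 for HMMR, -0.085 for NUF2 and -0.087 for SMC2. Without normoxia replicate 3 that correction gave 0.031 for AURKB, 0.068 for BIRC5, -0.075 for CCNB1, 0.015 for ESPL1, 0.015 for FOXM1 and -0.14 for KIF11, and BIRC5 was 0.0035 by edgeR and 0.0047 by DESeq2. These alternatives without normoxia replicate 3 were chosen after seeing the data. With 1 library left out at a time, values ran from -0.12 to 0.30 for AURKA, -0.28 to 0.049 for AURKB, -0.16 to 0.24 for BIRC5, -0.45 to 0.19 for BUB1, -0.34 to 0.28 for CCNB1, -0.37 to 0.86 for CDK1, -1.10 to 0.27 for CENPF, -0.40 to 0.81 for ECT2, -0.61 to 1.06 for HMMR, -0.83 to 0.21 for KIF11, -0.89 to 1.02 for KIF18A, -0.65 to 0.20 for KIF23, -0.14 to 0.39 for KIF2C, -0.62 to 0.70 for NCAPG, -0.55 to 1.00 for NUF2, -0.49 to 0.020 for PLK1, -0.25 to 0.58 for PTTG1, -0.52 to 0.86 for SMC2, -0.13 to 0.67 for SPC25, -0.56 to 0.61 for TOP2A and -0.85 to 1.21 for TTK. CDC25B kept its sign throughout, from -1.06 to -0.71, with an adjusted p from 0.0751 (DESeq2 without normoxia replicate 3) to 1.00 over these alternatives. MKI67, INCENP and CCNB2 also kept their signs throughout. With 1 library left out at a time, they ran from -0.99 to -0.35, -0.42 to -0.020 and 0.00021 to 0.45.

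Genes under an FPKM of 1 in most libraries, 7 members among them, were not tested, and with 3 libraries a group most intervals allow a 2-fold change.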

Other observations

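The genes of DNA replication had mostly negative differences with all libraries, none of which passed the test. All 34 were tested and 0 were called by limma. Differences were positive for 4 and negative for 30, against 5179 positive among all 10237 genes tested. The median log2 difference was -0.23, against 0.00 over all genes. Leaving out normoxia replicate 3 gave 13 positive by limma, against 5181 among all genes, and a median of -0.05, against 0.01. By edgeR and DESeq2 without that library, 19 were positive and 15 negative. The medians were then 0.013 and 0.014, against 0.018 and 0.020 over all genes. At an unadjusted p below 0.05 and with all libraries, limma picked 0 of them in either direction, where 2.19% of all genes fell as higher and 0.498% as lower. CDT1, a licensing factor of replication origins, had the highest difference, with 2031, 2453 and 1307 scaled reads in hypoxia, against 1997, 1205 and 2196 in normoxia (log2 difference 0.10, 95% interval -0.64 to 0.85). MCM5, a subunit of the replicative helicase, had the lowest, with 2466, 1971 and 1347 in hypoxia, against 3077, 1995 and 3584 in normoxia (log2 difference -0.58, 95% interval -1.31 to 0.15).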
